A study of Mus musculus with 16 samples.

Results

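Leydig cells of the neonatal mouse testis were described in single-cell RNA sequencing of whole testes at postnatal day 2 (P2). They were chosen by 3 steroidogenic genes: a cell was counted as a Leydig cell if it held at least 20 unique molecular identifiers (UMIs, each standing for 1 captured mRNA molecule) of *Cyp11a1*, *Cyp17a1* and *Hsd3b1* together. The rule was applied to 11279 cells that held 2000 genes or more and took no more than 10% of their UMIs from the mitochondrial genome. It was met by 320 cells, 177 of 6329 in the wild-type library and 143 of 4950 in the library labelled *Ddx5* knockout.

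The wild-type mice and the germ cell-specific *Ddx5* knockout mice were compared at the same age after dissociation of the testes with TrypLE. In the knockout, *Ddx5* floxed alleles were crossed to a Cre recombinase driven by the *Mvh* promoter, which is active in germ cells, so that Leydig cells were not a target of the deletion. The labels list 8 sequencing libraries per genotype, but the barcodes of the deposited table carry 2 suffixes, 3 for wild type and 4 for knockout, so each genotype counted as 1 library, and no test between genotypes was possible. The number of mice behind a library was not given. The suffixes were assigned to genotypes from the numbers of cells that the study states after its filter.

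The libraries held 84263163 and 67558106 UMIs over 6763 and 5423 barcodes, in the order wild type and then the library labelled *Ddx5* knockout, which is kept below for pairs of values unless the libraries are named with them. Leydig cells held 3011541 and 2874710 of these UMIs, with a median of 14732 (6120 to 55355) and 17355 (4840 to 58171) per cell. Other kept cells had medians of 11090 and 11523. The libraries shared 12 barcode sequences, of which 1 belonged to a Leydig cell in either library and 0 in both.

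Leydig cells lie between the seminiferous tubules and make androgens. In mice a fetal population arises before birth and an adult population replaces it around puberty, and fetal Leydig cells make mainly androstenedione, which Sertoli cells convert to testosterone. Steroid synthesis starts in mitochondria, where STAR delivers cholesterol and CYP11A1 cleaves its side chain with electrons from ferredoxin (*Fdx1*) and ferredoxin reductase (*Fdxr*). HSD3B1 and CYP17A1 then act in the endoplasmic reticulum. Fetal Leydig cells also secrete INSL3, the hormone that draws the testis down.

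The label was checked against 2 markers that the rule did not use. *Insl3* had a UMI in 175 of 177 wild-type Leydig cells and in 140 of 143 Leydig cells of the knockout-labelled library. *Star* had a UMI in 167 and 136 of them. In the other kept cells *Insl3* had a UMI in 1.15% and 0.895%, and *Star* in 8.60% and 7.61%. Levels were summed over the cells of a group and given as CPM, counts per 1e+06 UMIs. The summed level of *Insl3* was 809-fold and 894-fold that of the other kept cells in the wild-type and the knockout-labelled library, and *Star* stood at 745 and 897 CPM against 8.42 and 7.20 CPM. The 10 genes listed for adult Leydig cells summed to 329 and 335 CPM in Leydig cells and to 670 and 748 CPM in the other kept cells. Of these, *Hsd3b6* and *Cyp2a4* had no UMI in any of the 320 cells, which allows up to 3 UMIs in either library, *Sult1e1* had 3 and 1 UMIs and *Hsd11b1* 0 and 1. The prolactin receptor *Prlr* was highest of the list, at 206 and 170 CPM. Of the 7 that could be compared with other cells, *Srd5a1* was at least 4-fold higher (33.5 and 23.3 CPM, 6.54-fold and 4.79-fold) and *Hsd17b3* and *Ptgds* at least 4-fold lower, where over all 17381 genes compared 3.19% were higher and 5.17% lower. Since the members were chosen on the same cells, all levels against other cells are descriptions without a test.

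Promoters are shown because NR5A1, the master regulator of steroidogenic genes, binds DNA with the letters CAAGGNC, and *Insl3* and *Fdx1* hold them just before their start. The bases come from RefSeq on GRCm38.p6, are read 5′ to 3′ on the strand of the gene and stop before the first annotated transcript base. *Insl3* is at chr8:71689002-71689213 on the plus strand, inside an intron of *Jak3*, and *Fdx1* at chr9:51963603-51963852 on the minus strand. Capitals mark CAAGGNC on either strand.
Insl3: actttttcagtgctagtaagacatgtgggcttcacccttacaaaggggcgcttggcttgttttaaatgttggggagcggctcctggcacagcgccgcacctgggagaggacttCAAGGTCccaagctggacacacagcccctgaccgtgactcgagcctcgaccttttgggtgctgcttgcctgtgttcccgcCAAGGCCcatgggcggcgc
Fdx1: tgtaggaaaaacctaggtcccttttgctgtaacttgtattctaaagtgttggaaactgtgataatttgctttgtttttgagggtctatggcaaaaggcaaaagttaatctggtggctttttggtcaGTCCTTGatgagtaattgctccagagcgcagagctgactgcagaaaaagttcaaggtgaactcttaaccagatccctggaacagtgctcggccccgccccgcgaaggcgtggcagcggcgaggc
The stretch of *Insl3* held the letters 137 and 57 bases before the RefSeq start, both on the strand of the gene, and that of *Fdx1* held them 124 bases before it on the other strand. Windows from 250 bases before to 50 after a start were at hand for 377 of the 555 genes (3.19% of 17381 compared) that were at least 4-fold higher in Leydig cells than in other kept cells of both libraries. Of these 377, 30.2% held CAAGGNC in at least 1 window on either strand, against 20.4% of 11834 genes compared. The letters AAGGTCA, which can overlap it shifted by 1 base, were in 7.96% and 4.06%. Among the rule genes *Cyp11a1* and *Hsd3b1* held neither in these windows. Neither window of *Cyp11a1* covered the start of the gene at chr9:58006411 in GENCODE vM21. Of other genes named below, *Lhcgr*, *Hao2*, *Gpha2*, *Crhr1*, *Oca2* and *Slc45a3* held neither as well, while *Fdxr*, *Oxtr* and *Ren1* held CAAGGNC. No window was at hand for *Cyp17a1* and *Star*.

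The sum of the 3 rule genes, which chose the cells, is described here only for how many cells lay near the limit. In the wild-type library 5384 of 6329 kept cells had no UMI of the 3 genes, 143 had 200 or more, and 2 had between 40 and 99. In the knockout-labelled library 4051 of 4950 had none and 126 had 200 or more. The wild-type cells just inside the limit summed to 20, 21 and 25 UMIs and those just outside to 17, 15 and 12, while the nearest cells of the other library lay at 23, 24 and 30 inside and at 18 and 15 outside. The 4 cells just inside the limit in each library had mitochondrial shares of 1.18% to 2.51%, at the level of other cells, and up to 27 UMIs of the stromal gene *Dcn*.

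**Figure D1:**
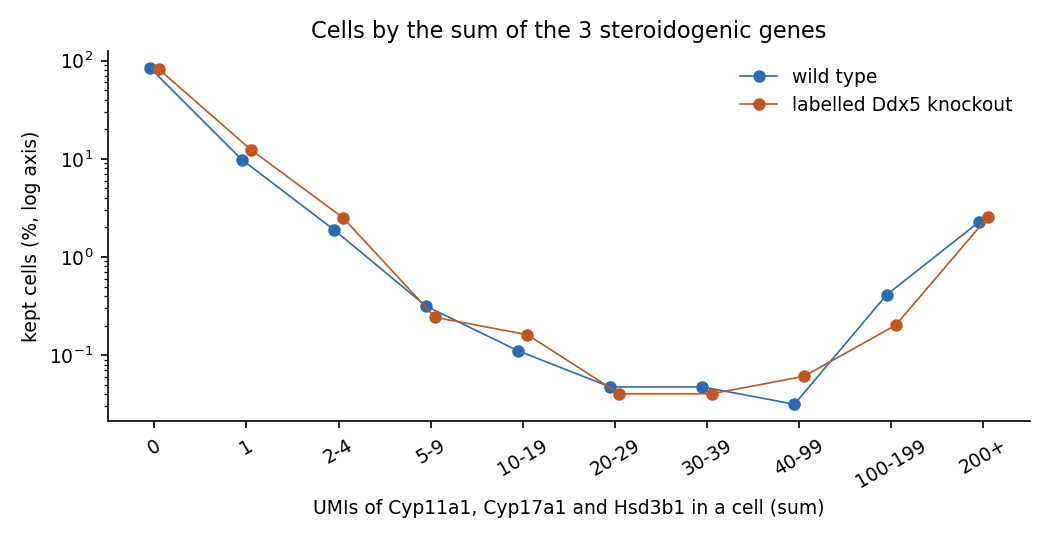
Percent of kept cells (log axis) by the summed UMIs of *Cyp11a1*, *Cyp17a1* and *Hsd3b1*, in the wild-type library (blue) and the library labelled *Ddx5* knockout (orange). The share falls to its lowest between 20 and 99 UMIs and rises again to 2.26% of wild-type cells with 200 or more.

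Leydig cells were 2.80% of kept wild-type cells (exact 95% binomial interval 2.40% to 3.23%) and 2.89% of kept cells of the library labelled *Ddx5* knockout (2.44% to 3.39%). The ratio of the shares was 1.03, with an interval of 0.823 to 1.29. All intervals here cover counting error only. At a mitochondrial limit of 20% the numbers were 190 and 156 cells, or 2.99% and 3.14%, and the ratio was 1.05.

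The mitochondrial limit removed a larger share of Leydig cells than of the other cells. Their median mitochondrial share was 6.80% for wild type and 6.55% for the knockout-labelled library, with a range of 1.62% to 9.94% and of 0.186% to 9.92%. The other kept cells had medians of 2.20% and 2.08%, cells with Sertoli markers 2.83% and 2.73%, and cells with stromal markers 1.88% and 1.82%. Among cells with at least 2000 genes, the limit of 10% removed 13 of 190 wild-type cells that met the rule (6.84%, interval 3.69% to 11.4%) and 13 of 156 (8.33%, 4.51% to 13.8%) of the other library. It removed 9 of 6161 and 4 of 4811 cells that did not meet the rule. A limit of 5% would have removed 77.9% and 80.8% of the cells that met the rule and 1.93% and 0.665% of the others. No cell that met the rule lay above 15%.

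**Figure D2:**
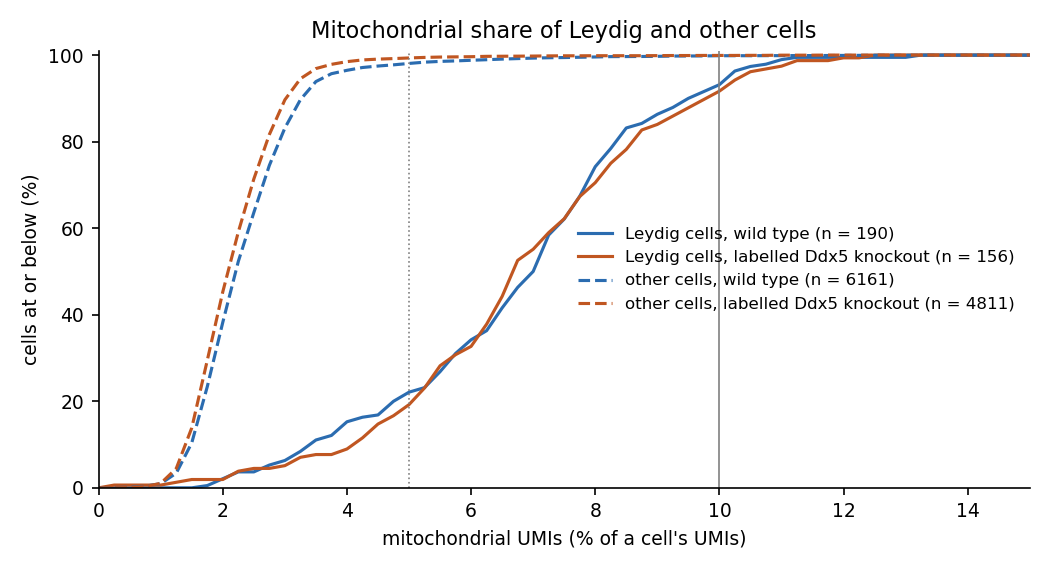
Cumulative percent of cells with at least 2000 genes by their mitochondrial share, for cells that meet the Leydig rule (solid) and others (dashed) of each library; vertical lines mark 5% and 10%. The limit of 10% cuts 6.84% and 8.33% of Leydig cells, and the limit of 5% leaves 42 of 190 and 30 of 156.

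The 13 cells of each library above 10% held more *Star* than the Leydig cells kept, at 1235 against 745 CPM in wild type and at 1973 against 897 CPM in the other library. *Cyp11a1*, by which they were chosen, was at 16391 and 12558 CPM in them and at 10498 and 10464 CPM in the Leydig cells kept. Across Leydig cells within a library, mitochondrial share and *Cyp11a1* CPM had a Spearman correlation of 0.54 in 177 wild-type cells and 0.45 in 143 others, and mitochondrial share and *Star* 0.49 and 0.35. These values describe cells of 1 library each, with depth and library shared. They took in Leydig cells with markers of another type, defined below. In these the median mitochondrial share was 3.83% and 5.10%, against 7.07% and 6.66% in the other Leydig cells. Their median for the summed rule genes was 12406 and 15698 CPM, against 23216 and 25039 CPM. The part of such cells in the correlations was not tested.

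The high mitochondrial share was spread over the mitochondrial genome. All 13 mitochondrial mRNAs were higher in Leydig cells, from 1.68-fold to 2.83-fold in wild type and from 1.89-fold to 3.45-fold in the other library, and none reached 4-fold. *mt-Nd1*, a subunit of complex I, was at 13395 and 14205 CPM, 2.83-fold and 3.45-fold its level in other cells. Nuclear genes of the respiratory chain had a median log2 ratio of 0.62 and 0.61 over 98 genes, and ribosomal protein genes one of -0.42 and -0.41 over 91, beside -0.08 and -0.02 over all 17381 genes compared.

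Against the other kept cells, 555 of 17381 genes (3.19%) were at least 4-fold higher in Leydig cells of both libraries and 898 (5.17%) at least 4-fold lower. These counts carry no test, since cells were chosen by the expression of the same libraries. The rule genes themselves were 1123-fold to 2231-fold higher. Apart from them and *Insl3*, the highest ratios among genes found in at least 50% of Leydig cells were those of 6330411D24Rik (1070.2-fold for wild type and 947-fold for the other library), *Gpha2*, an alpha subunit of glycoprotein hormones (916-fold and 1084-fold), *Hao2*, a peroxisomal hydroxy acid oxidase (888-fold and 788-fold), and *Crhr1*, a receptor of corticotropin-releasing hormone (1068-fold and 738-fold). The oxytocin receptor *Oxtr*, the renin gene *Ren1*, *Oca2*, the LH receptor *Lhcgr* and *Slc45a3* followed, each at least 206-fold higher. Some of these folds divide by few UMIs in other cells. *Crhr1* had a UMI in 4 other kept cells of each library, with intervals of 409 to 3967 and 282 to 2748. For 6330411D24Rik the intervals were 558 to 2359 and 525 to 1911. The complement genes *C4b* (723-fold and 782-fold) and *C4a* (249-fold and 232-fold) are near-identical copies whose reads can be split between them, so their separate values are uncertain.

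Among genes with a UMI in at least 50% of the other kept cells, the lowest ratios were those of *Ramp2* (0.0664 and 0.0884 times its level in other cells), *Cd34* (0.0914 and 0.0578) and *Csrp1* (0.0947 and 0.0690). The collagen gene *Col1a1* was at 74.4 and 73.1 CPM against 778 and 850 CPM in other cells, and *Mfap4*, *Eln*, *Islr* and *Cxcl12* were also among the 15 lowest, at 0.0654 to 0.101 times their level in other cells. Among Leydig cells that reached the markers of no other type, as defined next, 1246 genes in place of 898 were at least 4-fold lower. In the 147 and 108 such cells *Col1a1* had 24 and 13 of its 224 and 210 UMIs, and *Ramp2* 7 and 5 of 24 and 32. *Cd34* had 5 and 5 of 42 and 29. The ratios and levels above take in all Leydig cells.

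Markers of other cell types were found in some Leydig cells. A cell reached a type with at least 2 UMIs of at least 3 of its 5 markers. Of 177 wild-type Leydig cells, 7 reached Sertoli cells, 22 stromal cells, 3 peritubular myoid cells, 2 macrophages and 0 germ or endothelial cells, and 147 reached no other type. Of the 143 Leydig cells of the knockout-labelled library, 13 reached Sertoli cells, 23 stromal cells and 1 macrophages, and 108 reached no other type. Summed Sertoli markers ranged from 0 to 7087 CPM per wild-type Leydig cell (median 54.3) and from 0 to 4201 CPM in the other library (median 59.2), against medians of 5575 and 4984 CPM in cells with Sertoli markers. Leydig cells that reached another type were deeper, at medians of 24030 and 26579 UMIs, than those that did not, at 14308 and 16588. Scrublet called 14 and 20 Leydig cells doublets, of which 14 and 19 had reached another type. They were kept, and their part in a result was not tested except where a value without such cells is given.

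The 3 rule genes define the Leydig cells, so their levels describe only the spread among these cells. *Cyp11a1*, the side-chain cleavage enzyme, had 2, 167 and 726 UMIs in the lowest, the median and the highest wild-type Leydig cell and 5, 200 and 537 in the other library. *Hsd3b1* had 0, 99 and 371 UMIs per cell in wild type and 0, 131 and 393 in the other library. *Cyp17a1* varied most of the 3: it ran from 0 over a median of 66 to 406 UMIs in wild type, and from 0 over 88 to 436. The coefficient of variation of *Cyp17a1* CPM over cells was 0.799 and 0.815, against 0.422 and 0.434 for *Cyp11a1*, and 16 and 12 Leydig cells had at most 2 UMIs of it. *Hsd3b6* and *Hsd3b2*, close relatives of *Hsd3b1*, had no UMI in Leydig cells.

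*Fdx1* was at 2202 and 2357 CPM in Leydig cells, 24.7-fold and 27.8-fold above other cells, and *Fdxr* 5.50-fold and 5.41-fold above. These were 2 of 13 electron donors and cholesterol carriers, a list that leaves out *Star*, and the only ones of it past 4-fold in both libraries, beside 3.19% higher among all genes. *Por*, the reductase that serves CYP17A1, was 3.88-fold and 4.02-fold higher and *Tspo* 1.58-fold and 1.52-fold. Of 24 steroid conversion enzymes listed, 15 could be compared, 4 were at least 4-fold higher (*Cyp11b1*, *Cyp21a1*, *Hsd17b7* and *Srd5a1*) and 2 at least 4-fold lower (*Hsd17b3* and *Hsd11b2*), beside 3.19% and 5.17% of all genes. *Hsd17b3*, which makes testosterone from androstenedione, was at 11.6 and 22.3 CPM in Leydig cells, against 342 and 338 CPM in cells with Sertoli markers. *Hsd17b1* likewise stood at 57.8 and 76.5 CPM in Leydig cells and at 406 and 423 CPM in cells with Sertoli markers. Aromatase, *Cyp19a1*, had no UMI in Leydig cells.

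**Figure D3:**
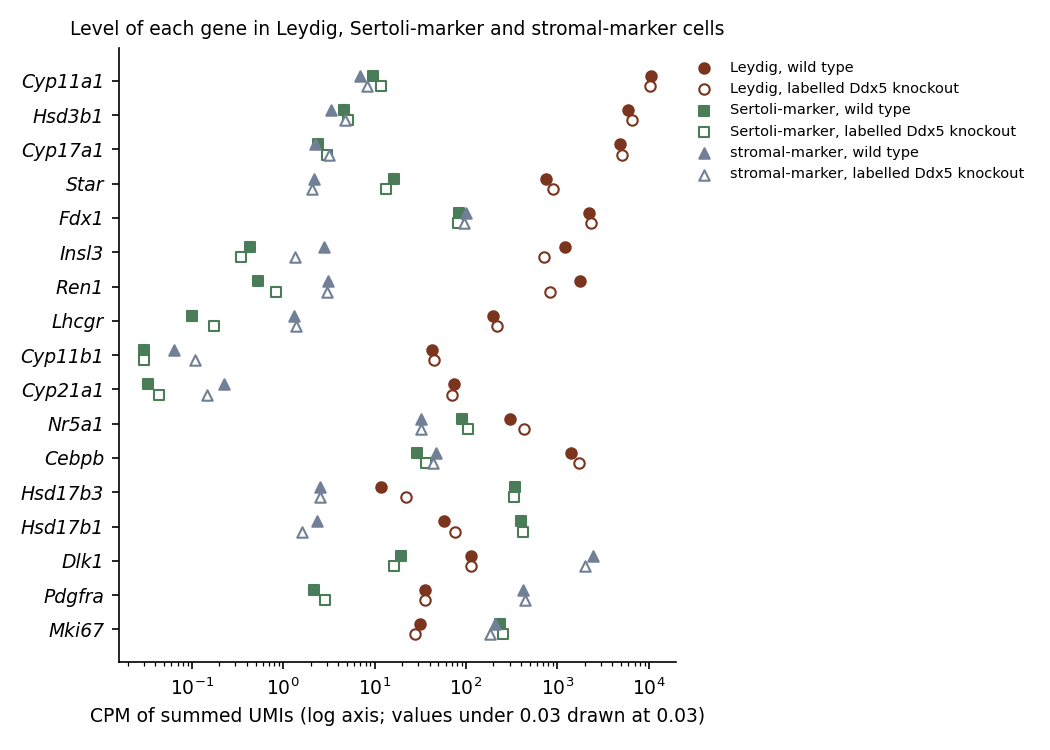
Level of each gene as CPM of summed UMIs (log axis) in Leydig cells (circles), cells with Sertoli markers (squares) and cells with stromal markers (triangles), with the wild-type library filled and the library labelled *Ddx5* knockout open. *Cyp11a1* to *Cebpb* lie highest in Leydig cells, *Hsd17b3* and *Hsd17b1* in cells with Sertoli markers, and *Dlk1* and *Pdgfra* in those with stromal markers; levels compare within a gene only.

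*Cyp11b1* and *Cyp21a1*, enzymes that make glucocorticoids and mineralocorticoids in the adrenal cortex, were found in a part of the Leydig cells. *Cyp11b1* had a UMI in 46 of 177 wild-type Leydig cells (26.0%) and in 38 of 143 (26.6%) of the other library, and *Cyp21a1* in 32 (18.1%) and 26 (18.2%). In other kept cells their summed level was 0.0501 and 0.113 CPM in wild type, against 42.5 and 74.7 CPM in Leydig cells. They overlapped in 19 wild-type cells, 59.4% of those with *Cyp21a1* and 41.3% of those with *Cyp11b1*. In the other library they overlapped in 12 cells, 46.2% and 31.6%. Of the Leydig cells without *Cyp11b1*, 9.92% for wild type and 13.3% for the other library had *Cyp21a1*.

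In the Leydig cells with both enzymes, median *Insl3* was 1454 CPM in wild type against 935 CPM in the 118 cells with neither, and 780 against 617 CPM in the other library. Among Leydig cells that reached no other type it was 1484 against 1054 CPM in wild type but 704 against 740 CPM in the other library. Median *Cyp17a1* was 5494 against 2792 CPM and 7550 against 3467 CPM, and median *Star* 1038 against 447 and 1434 against 644 CPM. The cells with both were also deeper, at a median of 18565 against 13937 UMIs and 21859 against 16813. The part of depth in this overlap was not tested. The receptor of adrenocorticotropic hormone, *Mc2r*, had 13 and 10 UMIs over all Leydig cells.

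Cholesterol synthesis was represented by 19 genes, all of them compared. Of these, 6 were at least 4-fold higher in Leydig cells of both libraries and none lower, among them *Hmgcs1* (9.01-fold and 7.19-fold), *Fdps* (8.57-fold and 7.75-fold), *Msmo1* (10.9-fold and 7.87-fold), *Nsdhl* and *Dhcr7*. The median log2 ratio of the 19 was 1.57 for wild type and 1.41 for the other library, and 3.19% of all genes were past 4-fold higher. Of 18 genes of cholesterol uptake, storage and control that could be compared, *Abca1* (21.3-fold and 15.8-fold), a cholesterol exporter, and the lipases *Lipe* and *Lipa* were past 4-fold, which is 3 of the 18. *Scarb1*, the receptor for high-density lipoprotein, was 3.79-fold and 4.62-fold higher.

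Of 19 hormone receptors compared, *Lhcgr*, *Crhr1*, the thyroid hormone receptor *Thrb* and the angiotensin receptor *Agtr1a* were at least 4-fold higher, and 4 were at least 4-fold lower, among them *Ednra*, *Ednrb* and *Fshr*. *Lhcgr* had 0, 2 and 17 UMIs in the lowest, median and highest wild-type Leydig cell and 0, 3 and 22 in the other library. *Agtr1a* rested on 18 and 7 UMIs. Of 26 genes of the cAMP pathway, by which the LH receptor signals, 2 passed 4-fold upward: *Prkar2b*, a regulatory subunit of protein kinase A (12.4-fold and 13.5-fold), and the phosphodiesterase *Pde8b* (13.4-fold and 17.8-fold). The adenylyl cyclases *Adcy5* and *Adcy7* were at least 4-fold lower, and the median log2 ratio of the 26 was -0.19 in each library. Over all genes 3.19% were higher and 5.17% lower. *Gnas*, which carries the signal from the receptor, was at 0.771 and 0.712 times its level in other cells.

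Among 22 gonadal transcription factors, *Cebpb* (32.2-fold and 36.6-fold), *Nr5a1* (5.68-fold and 6.92-fold) and *Tbx3* (6.93-fold and 10.7-fold) were higher, and *Sox9*, *Dmrt1*, *Wt1*, *Lhx9*, *Gli1* and *Tcf21*, among them Sertoli cell and progenitor factors, lower. Of 12 genes of interstitial progenitors 7 were at least 4-fold lower, among them *Dlk1*, *Pdgfra* and *Nes*, and the Notch ligand *Jag1* was higher (5.61-fold and 5.37-fold). *Nr2f2* was at 116 and 126 CPM in Leydig cells against 383 and 495 CPM in the other kept cells. Among 20 secreted factors, *Insl3*, *Ren1*, *Agt*, the substrate of renin (4.99-fold and 4.63-fold), and *Bmp2* (11.9-fold and 7.69-fold) were at least 4-fold higher, *Cxcl12*, *Igf1* and *Pdgfa* were at least 4-fold lower, and the median log2 ratio was -0.30 and -0.35. Of 27 antioxidant enzymes 1 was at least 4-fold higher, *Prdx3*, which resides in mitochondria (5.08-fold and 4.95-fold), and 1 lower, *Gpx3*. Of 18 genes of folding and stress in the endoplasmic reticulum 1 was higher, *Ddit3* (5.87-fold and 4.62-fold), and 0 lower. These counts stand beside the 3.19% higher and 5.17% lower of all genes.

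Leydig cells held fewer cell cycle transcripts than other cells. Of 30 genes of S phase and mitosis, 20 were at least 4-fold lower than in other cells in both libraries and none higher, beside 5.17% lower and 3.19% higher of all genes. *Mki67* was at 31.5 and 27.8 CPM against 217 and 215 CPM. Each cell was thinned to 5000 UMIs to compare cells at 1 depth, which left out 1 Leydig cell of the library labelled *Ddx5* knockout. The median was then 1 UMI of the 30 genes per Leydig cell and 4 per other cell in each library. At this depth 5 of 177 wild-type Leydig cells (2.82%, interval 0.923% to 6.47%) and 9 of 142 (6.34%, 2.94% to 11.7%) held at least 10 UMIs of the 30 genes, against 35.3% and 34.2% of other cells. Without thinning the shares were 13.6% and 19.6% of Leydig cells and 50.1% and 49.5% of other cells. Cells with markers of another type were among them, and their part was not tested.

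*Ren1* was spread more unevenly over the Leydig cells than *Insl3*, *Star* or *Cyp11a1*. Renin is the enzyme that opens the angiotensin cascade, and its gene is also expressed in steroidogenic tissue of mice. In wild-type Leydig cells *Ren1* ran from 0 over a median of 235 to 33513 CPM, and 136 of 177 had a UMI. In the library labelled *Ddx5* knockout it ran from 0 over 122 to 24359 CPM, and 97 of 143 had a UMI. Of the other kept cells 2.16% and 2.37% had one. The 18 wild-type cells with the most *Ren1* UMIs held 68.3% of them, where the top 18 for *Insl3* held 26.5%, for *Star* 32.0% and for *Cyp11a1* 24.3%. In the other library the top 14 cells held 70.2% of *Ren1*, 23.8% of *Insl3*, 28.7% of *Star* and 22.0% of *Cyp11a1*. Among Leydig cells that reached no other type *Ren1* went up to 32038 CPM in wild type and to 9168 CPM in the other library. The top 15 and 11 of these cells held 66.8% and 64.4% of their *Ren1* UMIs.

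The genes whose levels followed *Ren1* were ranked over Leydig cells that reached no other type's markers, by the Spearman correlation nearer 0 of the 2 libraries, a rule set after *Ren1* was seen to vary. *Igfbp7*, which codes for a secreted protein that binds growth factors, came first (0.51 in 147 wild-type cells and 0.48 in 108 others), followed by *Insl3* (0.46 and 0.47) and *Sparc*, a matrix protein gene (0.38 and 0.39). *Ssr4*, *Calm3* and *Cpq* were next at 0.27 to 0.32. The most opposed were *Gramd1b*, a carrier of cholesterol (-0.34 and -0.37), *Mpped2* (-0.36 and -0.30) and *Akr1cl* (-0.29 and -0.37). These are correlations of cells within a library, and depth is shared by both genes of a cell.

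**Figure D4:**
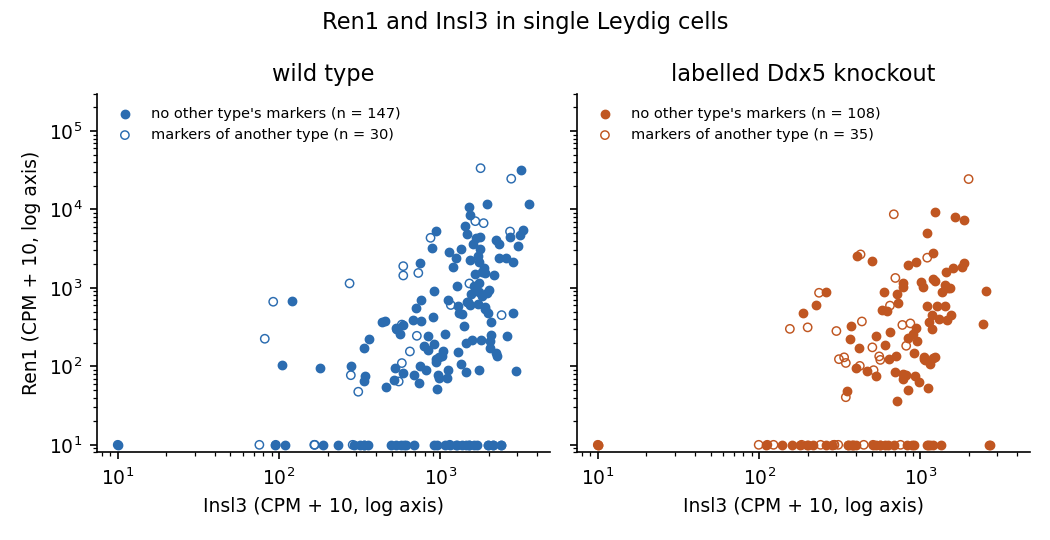
*Ren1* against *Insl3* in single Leydig cells, each as CPM plus 10 on log axes, by library; filled points reach no other cell type's markers and open points do. Filled points follow a rising trend (Spearman correlation 0.46 and 0.47), and cells without *Ren1* lie along the bottom over a wide range of *Insl3*.

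Other pairs moved together in both libraries. *Cyp17a1* and *Lhcgr* had correlations of 0.42 and 0.47 across Leydig cells, and *Cyp17a1* and *Star* 0.41 and 0.52. *Cyp17a1* and *Hsd3b1*, both rule genes, had 0.07 and 0.17. *Dlk1* and *Igf1*, which are stromal genes, had 0.35 and 0.52, and both were opposed to *Hsd3b1* (-0.30 to -0.36). *Hsd3b1* CPM was lower in cells with more UMIs (-0.38 and -0.40). All Leydig cells entered these correlations, among them the 30 and 35 that reached another type. Those were deeper and had a median of 12406 and 15698 CPM of the summed rule genes, against 23216 and 25039 CPM in the others. Their part in these correlations was not tested.

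The Leydig cells of the libraries were compared over 8989 genes with at least 50 UMIs. Of these, 281 (3.13%) were at least 1.5-fold higher in the library labelled *Ddx5* knockout and 254 (2.83%) at least 1.5-fold lower, and the median log2 ratio was 0.00. With doublets removed 143 of the 281 and 152 of the 254 were called again, and among Leydig cells that reached no other type 103 and 108. Genes that fell under 50 UMIs in these smaller sets of cells counted as not called again. The interval of the ratio, for counting error only, left out 1 for 202 of the 281 and 171 of the 254. Of the genes past 1.5-fold in Leydig cells, 19 higher and 18 lower were past it in the same direction in the other kept cells as well, where 50 and 78 of the same 8989 genes were past 1.5-fold in all. With 1 library per genotype, a difference compares these libraries and not the genotypes. Leydig cells of the library labelled *Ddx5* knockout were deeper, with medians of 14732 UMIs for wild type and 17355 for the other library.

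*Ddx5* itself was found in every Leydig cell of both libraries, at 1, 11 and 32 UMIs in the lowest, median and highest cell of the library labelled *Ddx5* knockout and at 2, 10 and 54 in wild type. Its summed level was 706 CPM for wild type and 616 CPM for the other library, a ratio of 0.873 (0.819 to 0.930), and 0.907 in other cells. Since the Cre is driven in germ cells, this does not check the labels. GFP and CRE had no UMI in Leydig cells. In other cells GFP was at 5.71 CPM for wild type and 0.347 CPM for the other library, and CRE at 0 and 0.316 CPM.

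The rule genes, given as a description because they chose the cells, had ratios between libraries of 0.997 for *Cyp11a1* (0.981 to 1.01), 1.05 for *Cyp17a1* (1.02 to 1.07) and 1.12 for *Hsd3b1* (1.09 to 1.14), which was 1.17 among Leydig cells that reached no other type. *Star* was at 745 CPM for wild type and 897 CPM for the other library, a ratio of 1.20, and stood at 0, 10 and 62 against 0, 15 and 74 UMIs in the lowest, median and highest cell. *Nr5a1* was 1.40-fold higher (1.28 to 1.52) and *Cebpb* 1.22-fold (1.17 to 1.27), both under 1.5-fold.

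*Insl3* was lower in the library labelled *Ddx5* knockout. Wild-type Leydig cells had 0, 1144 and 3543 CPM in the lowest, median and highest cell, and those of the other library 0, 683 and 2686 CPM, so that the ranges overlapped. The summed level was 1225 against 720 CPM, a ratio of 0.588 (0.557 to 0.621), and 0.630 among Leydig cells that reached no other type. Over the alternatives tried the ratio stayed between 0.587 and 0.630. In other kept cells, few of which had an *Insl3* UMI, the ratio was 0.532. The last exon of *Insl3*, where 3′ reads fall, is shared: GENCODE vM21 lists chr8:71690172-71690575 as an exon of both *Insl3* and *Jak3* on the same strand. How the counting treated reads there is not given in the sources used here, and the absolute level of *Insl3* is uncertain for that reason. *Jak3* had 18 UMIs in Leydig cells of each library.

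*Ren1* was at 1763 CPM in wild-type Leydig cells and at 833 CPM in the others, a ratio of 0.473 (0.450 to 0.496), while in other cells the ratio was 0.966. A single cell held 12.9% of the wild-type UMIs and 20.5% of the others, and without the top cell of each library the ratio was 0.431. *Nfkbia*, which codes for an inhibitor of NF-kappa-B, had 0, 363 and 2636 CPM in the lowest, median and highest wild-type Leydig cell and 0, 140 and 876 CPM in the other library. Its summed level was 412 against 196 CPM (0.475, 0.429 to 0.525), against 0.885 in other cells, with at most 4.44% of its UMIs in a single cell. *Cxcl1*, a chemokine gene, had 73 against 3 UMIs and *Cxcl10* 64 against 5, with 41.1% and 56.2% of the wild-type UMIs in 1 cell each. *Mgp* and *Pf4* rested on 1 cell for 42.0% and 89.7% of wild-type UMIs. *Wdfy1* and *Gm43305* were lower in Leydig cells (0.266 and 0.164) and in other cells (0.359 and 0.189) alike.

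**Figure D5:**
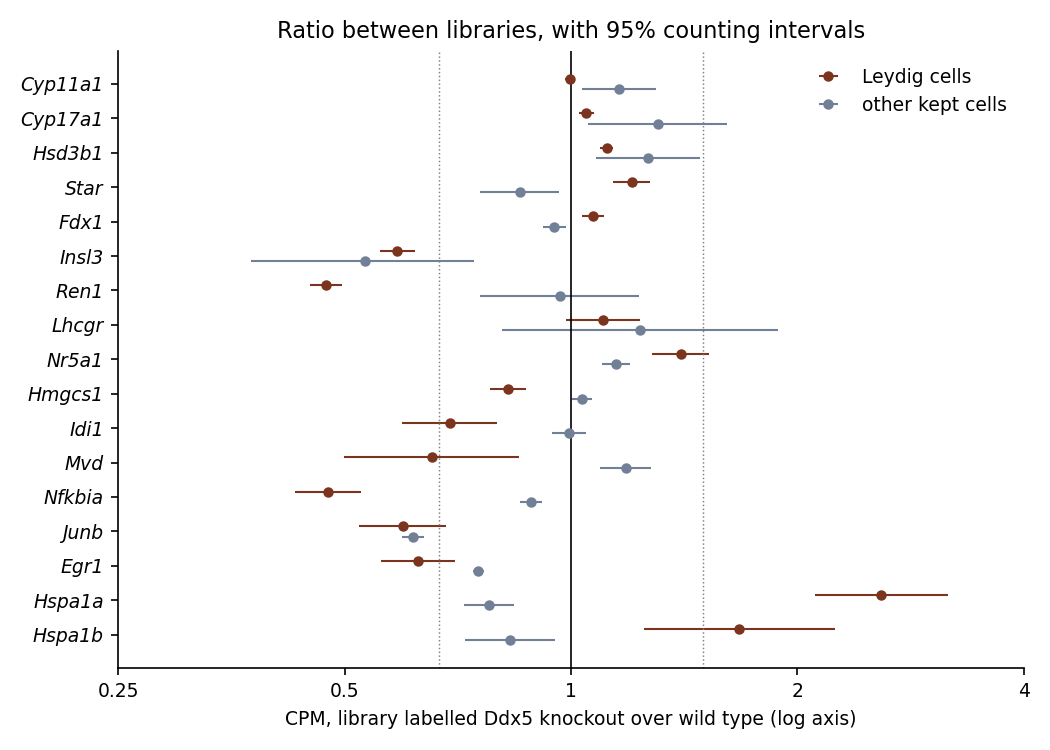
Ratio of CPM in the knockout-labelled library relative to wild type (log axis) for single genes in Leydig cells (brown) and in the other kept cells (grey), with 95% intervals for counting error; dotted lines mark 1.5-fold. *Insl3*, *Ren1* and *Nfkbia* lie left of the dotted line in Leydig cells, *Hspa1a* and *Hspa1b* right of it, and *Cyp11a1*, *Cyp17a1*, *Hsd3b1* and *Fdx1* between the dotted lines.

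Most UMIs of the genes with the largest increases lay in single cells. *Hbb-bs*, a haemoglobin gene, had 10 UMIs in wild-type Leydig cells and 2700 in the others, of which 2626 lay in 1 cell that also held 237 UMIs of *Cyp11a1* and 11 of the erythroid gene *Alas2*. *Hba-a1*, *Hba-a2* and *Hbb-bt* went with it, with 93.6% to 97.2% of their UMIs in a single cell, and in other cells these genes were 4.14-fold to 11.4-fold higher in the same library. Without the top cell of each library *Hbb-bs* was still 8.61-fold higher (4.30 to 19.6), and *Hbb-bt* had 0 and 14 UMIs. *Hba-a1* was then 22.0-fold (3.54 to 910) and *Hba-a2* 9.43-fold (2.26 to 83.8) higher, with no floor applied. In wild type these genes held only 2 and 3 UMIs with the top cell included. *Hba-a1* and *Hba-a2* are near-identical copies, so their separate values are uncertain. *Lyz2* (278 of 280 UMIs), *Hmox1* (644 of 710), *Clec4n* (44 of 46) and *Lgals3* (71 of 71) lay in 1 cell that reached the limit for macrophage markers and had 174 UMIs of *Cyp11a1*. Without the top cell of each library the *Hmox1* ratio turned from 3.76 to 0.736.

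Most genes of cholesterol synthesis had a ratio under 1 between the libraries. Of the 19, 2 were past 1.5-fold lower, among them *Mvd* (0.654, 0.499 to 0.853), and 0 were past it higher, beside 2.83% and 3.13% of all genes. A ratio above 1 was found for 2 of 19. Their median log2 ratio was -0.28, beside 0.00 over all genes compared in Leydig cells and -0.01 for the same genes in the other kept cells, where 9 of 19 had a ratio above 1. *Idi1* (0.690), *Msmo1* (0.741), *Dhcr7* (0.739) and *Hmgcs1* (0.825) had intervals below 1. Of 16 genes of cholesterol uptake, storage and control, 8 had a ratio above 1 and the median log2 ratio was -0.01. The 2 of them past 1.5-fold, beside 3.13% higher and 2.83% lower of all genes, were lower: *Insig1*, which holds the sterol-sensing complex in the endoplasmic reticulum, at 0.551 and the lysosomal cholesterol carrier *Npc1* at 0.562.

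Early response and heat shock genes lay on both sides of 1, and the counts here stand beside 3.13% of all genes past 1.5-fold higher and 2.83% past it lower. Of 16 compared, *Egr1* (0.626), *Junb* (0.598), *Fosb*, *Ier2* and *Ier3* were past 1.5-fold lower, and *Hspa1a* (2.58, 2.11 to 3.17), *Hspa1b* (1.67) and *Nr4a1* (2.30, 1.64 to 3.25) past it higher. In the other kept cells 0 of the 16 had a ratio above 1, with a median log2 of -0.39, and *Nr4a1* was at 0.567. *Hspa1a* was at 0.779 there. Of the other lists, 0 of 13 receptors were past 1.5-fold, and 1 of 16 genes of the cAMP pathway was higher, *Crtc1* (2.72, on 15 and 39 UMIs). Of 18 transcription factors *Cebpa* (2.01), *Nr4a1* and *Sox9* were higher and *Tcf21* (0.625) lower. Of 5 adult Leydig genes *Hsd17b3* (1.92) and *Ptgds* (2.54) were higher and *Vcam1* (0.575) lower. *Hsd17b3* had a UMI in 12 of 177 and 18 of 143 Leydig cells, and in 97.0% and 97.2% of cells with Sertoli markers. Of 12 steroid conversion enzymes *Hsd17b3* was higher and *Akr1b7* (0.390) lower, and of 15 secreted factors *Bmp2* (0.649), *Insl3* and *Ren1* were lower. Of 26 antioxidant enzymes *Hmox1* was higher and *Nqo1* (0.541) lower, and of 18 genes of folding and stress *Hyou1* (1.57, 0.912 to 2.75) was higher. Of 23 cell cycle genes 4 were higher, *Aurkb*, *Birc5*, *Ccnb2* and *Mcm5*. The Sertoli markers *Amh*, *Cst9* and *Sox9* were 1.91-fold, 1.63-fold and 1.62-fold higher, beside 7 wild-type Leydig cells and 13 of the other library that reached Sertoli markers. Among Leydig cells that reached no other type *Amh* had 10 and 5 UMIs in all. Among the same cells 9 list genes in place of 22 were past 1.5-fold higher and 15 in place of 18 past it lower. The 2 myoid markers compared were past 1.5-fold lower, *Acta2* at 0.519 (0.412 to 0.652) and *Tagln* at 0.388 (0.220 to 0.659), beside 3 wild-type Leydig cells and 0 of the other library that reached myoid markers. *Acta2* was at 1.26 with doublets removed and at 0.308 among Leydig cells that reached no other type.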

How the data were processed

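The authors deposited 1 table of raw UMI counts per gene and barcode from Chromium 3′ libraries, made per the submitters' processing notes with Cell Ranger 3.1.0, Seurat 3.1.5 and GRCm38. From these counts, barcodes holding 2000 genes or more, with mitochondrial UMIs not above 10%, were kept, and UMIs were summed over cells and scaled to CPM. Ratios had exact conditional binomial 95% intervals and shares Clopper-Pearson intervals. Genes needed 50 UMIs over the groups compared, and a sum under the floor of 3 UMIs was raised to it before a fold was called. Named genes were those of 25 lists, *Ddx5*, GFP and CRE, the 15 highest and 15 lowest ratios to other cells, and the 8 highest and 8 lowest between libraries. *Jak3*, *Malat1* and the genes ranked by their correlation with *Ren1* were named outside these rules. The members and lists were chosen with earlier results of these data known. Doublets were marked with Scrublet (scanpy 1.11.5) and kept. Scripts ran in Python 3.11.15 with pandas 2.3.3, SciPy 1.17.1, NumPy 2.4.6 and matplotlib 3.10.9 and were tested on simulated data. Some members of the lists are not reported here.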

Additional observations from a re-analysis of the deposited data

Results flagged for a closer look

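Barcodes left out by the filters also met the Leydig rule. Among barcodes with under 2000 genes, 22 of 412 in the wild-type library (5.34%, 3.38% to 7.97%) and 40 of 456 in the library labelled *Ddx5* knockout (8.77%, 6.34% to 11.8%) summed to at least 20 UMIs of the 3 rule genes. Of these, 18 and 29 had an *Insl3* UMI. The nuclear transcript *Malat1* was at 409 and 4487 CPM in them, against 28763 and 28310 CPM in Leydig cells and 21640 and 19551 CPM in other barcodes with under 2000 genes. Their median mitochondrial share was 0.0757% and 0.475%. Above the mitochondrial limit lay 13 cells of the wild-type library and 13 of the library labelled *Ddx5* knockout that met the rule, with *Insl3* at 1468 and 1108 CPM and *Ren1* at 2507 and 500 CPM.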

How the results depend on the processing

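The Leydig share was 2.32% and 2.18% when cells with markers of another type were left out, an alternative chosen after seeing the data. With no UMI minimum, 894 genes were at least 4-fold higher than in other cells, and 1309 were past 1.5-fold higher and 1370 lower between libraries. After thinning each cell to 5000 UMIs, 4857 genes could be compared and 166 were higher and 161 lower, and of the reported genes 45 higher and 29 lower could still be compared, of which 37 and 24 were called again. Among Leydig cells that reached no other type, list genes higher in the library labelled *Ddx5* knockout numbered 9 in place of 22 and those lower 15 in place of 18. Of the genes called between libraries, 103 higher and 108 lower were shared with that setting. Ratios of named genes to other cells, with each library counted on its own, left their counting interval there in 299 cases. They stayed within it in 349. *Acta2* turned from 0.519 to 1.26 with doublets removed, and *Hmox1* to 0.736 without each library's top cell, an alternative also chosen after seeing the data. The causes were not tested. With doublets removed 246 and 268 genes were called, but only 143 of the 281 higher and 152 of the 254 lower ones reported were among them. The other settings left the counts of called genes within 1.5 times of those reported. No paired analysis was possible because the labels number 8 libraries per genotype and the barcodes of the table do not separate them.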
